A study of Homo sapiens with 8 samples.

Results

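The 9 genes described here, TP53INP1, CDKN1A, MDM2, PHLDA3, SESN1, BTG2, GDF15, FAS and FBXW7, are genes that the tumour suppressor p53 is known to switch on, and they were measured in cells whose own p53 is mutant. They were picked by name, as the rows with these symbols among 23368 gene symbols of a table of read counts, and all 9 had a row. The choice was made with earlier results of these data known. RNA-seq libraries came from MDA-MB-231 cells, a long-established line from a human breast tumour of the triple-negative kind, grown in DMEM with 10% FCS and transfected, by the reagent interferin, with 1 of 4 small interfering RNAs. The siRNAs siE1, siE2 and siE3 target the mRNA of ESRRA, which encodes the orphan nuclear receptor ERRα, and siC is the control siRNA. Each siRNA had 2 libraries, so that every mean ± SD has n = 2, and the total was 21835995 to 25880548 counts per library. All 8 libraries come from 1 line, with 1 control siRNA, and the sources used here give neither the siRNA dose nor the time of harvest.

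The p53 protein is a transcription factor that DNA damage and other stresses stabilise. It binds response elements near its target genes and raises genes that stop the cell cycle, repair DNA, start cell death or feed back on p53 itself. Many of these genes also have regulators other than p53. Among the members, CDKN1A and BTG2 restrain proliferation, and MDM2 and FBXW7 encode parts of ubiquitin ligases. FAS, PHLDA3 and TP53INP1 act in cell death, survival signalling and autophagy, SESN1 in the stress response of metabolism, and GDF15 is a secreted stress cytokine.

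The p53 response element is best known from MDM2, whose inner promoter carries a pair of such elements. The RefSeq promoter table (build GRCh38.p14, 250 bases before to 50 after each start, 35116 entries) gave the 17 entries used here, for 7 of the 9 members. PHLDA3 had no entry. TP53INP1 was left out of the search whether or not it had an entry, so nothing is said here of its promoter. The table was searched on both strands for the 20-base p53 response element, 2 decamers with no spacer. With at most 3 mismatches the element was found in 6 of the 17 entries, belonging to 5 members, and in 5.20% of all entries. With at most 2 mismatches it was found in 3 of the 17 entries, of MDM2 and FAS, and in 0.649% of all entries. A member with several entries had several chances of a match, and the entries of MDM2 with a match overlap. The inner MDM2 start (chr12:68808767-68809046, plus strand, from 250 bases before to 30 after the start) is shown because the elements lie in it, in capitals:
MDM2 inner promoter: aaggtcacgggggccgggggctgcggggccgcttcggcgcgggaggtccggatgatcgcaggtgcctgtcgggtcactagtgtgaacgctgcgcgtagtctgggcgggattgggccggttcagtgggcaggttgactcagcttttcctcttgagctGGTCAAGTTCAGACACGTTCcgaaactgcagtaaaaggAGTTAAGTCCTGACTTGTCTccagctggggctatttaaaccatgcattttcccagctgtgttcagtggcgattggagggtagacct

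The matches themselves are set out below to compare them, with capitals for each base that fits the consensus and lower case for each mismatch. Offsets are the distance of the first base from the listed start. The offsets were -94 and -56 bases in MDM2, -122 in FAS, -49 in SESN1, -20 in FBXW7 and 28 in GDF15, where negative values lie before the start. A second MDM2 entry, whose start lies 7 bases further on, holds the same matches.
MDM2, upstream match (chr12:68808923-68808942, plus strand): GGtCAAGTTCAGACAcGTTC
MDM2, downstream match (chr12:68808961-68808980, plus strand): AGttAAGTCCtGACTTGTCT
FAS (chr10:88991309-88991328, plus strand): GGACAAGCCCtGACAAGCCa
SESN1 (chr6:109009018-109009037, minus strand): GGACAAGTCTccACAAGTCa
FBXW7 (chr4:152382530-152382549, minus strand): tGGCTAtTCTAGGaTAGTTT
GDF15 (chr19:18386186-18386205, plus strand): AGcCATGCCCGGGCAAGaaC

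CDKN1A and BTG2, which moved in the same directions below, had no match in their single entries, and these windows do not reach elements farther away. The ERR element TNAAGGTCA, searched on both strands without mismatch, was in none of these 17 entries and in 0.951% of all entries. Their windows are shown because the pair moved alike. Both were rich in G and C, at 74.3% in CDKN1A and 73.3% in BTG2, against a median of 58.7% over all entries. This was not particular to the pair. Members that moved otherwise had entries at 75% and 72.3% (SESN1), 74.7% (outer MDM2 start) and 70% and 72% (FBXW7). The other entries of these 3 genes were at 37.7% to 59.7%.
CDKN1A promoter (chr6:36678464-36678743, plus strand): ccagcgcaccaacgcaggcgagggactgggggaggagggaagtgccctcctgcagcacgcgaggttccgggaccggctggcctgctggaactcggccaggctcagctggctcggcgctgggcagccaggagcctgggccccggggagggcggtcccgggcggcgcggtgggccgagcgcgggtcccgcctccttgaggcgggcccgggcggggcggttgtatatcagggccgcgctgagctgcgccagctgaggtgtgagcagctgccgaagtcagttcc
BTG2 promoter (chr1:203305269-203305548, plus strand): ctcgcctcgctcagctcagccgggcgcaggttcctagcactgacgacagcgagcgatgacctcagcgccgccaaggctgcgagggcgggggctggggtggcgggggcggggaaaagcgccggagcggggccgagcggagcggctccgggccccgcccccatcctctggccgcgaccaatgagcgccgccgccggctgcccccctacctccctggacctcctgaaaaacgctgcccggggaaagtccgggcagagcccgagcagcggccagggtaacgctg

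The markers of the line were mixed in the libraries. VIM stood at 3170 to 4060 CPM (counts scaled to the library size with TMM factors) and CD44 at 604 to 828 CPM, while ESR1, PGR and CDH1 had 0 to 3 counts in every library. The other genes of the list expected to be low were present, with ERBB2 at 52 to 67.1 CPM, EPCAM at 9.11 to 12.7 CPM and GATA3 at 2.57 to 4.32 CPM. That list summed to 65.3 to 65.6 CPM with siE1, 81.9 to 82.3 with siE2, 69.7 to 72.9 with siE3 and 70.2 to 73.5 with siC. Of the blood markers, PTPRC, CD3E and HBB had 0 to 2 counts, and the sum of that list (415 to 432 CPM with siE1, 290 to 294 with siE2, 322 to 327 with siE3 and 214 to 226 with siC) was nearly all CD68, a lysosomal protein. Of the fibroblast markers, DCN and LUM had no count and the list summed to 4.47 to 5.75 CPM with siE1, 8.76 to 10.4 with siE2, 6.97 to 7.77 with siE3 and 6.17 to 6.98 with siC. The part of any marker list in the results was not tested. In bulk RNA, fewer cells of a kind and less RNA per cell cannot be told apart. ESRRA, the targeted gene, was left at 10.3 and 10.5 CPM in the siE1 libraries, 8.86 and 7.25 CPM in the siE2 libraries and 8.55 and 8.31 CPM in the siE3 libraries, against 62.9 and 64.8 CPM with siC. The labels do not say that the libraries of a group came from separate cultures, so a p-value here speaks only of the scatter among the 8 libraries, and that may be technical.

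The 9 genes did not move as a block. TP53INP1 and PHLDA3 were higher with all 3 ESRRA siRNAs and FBXW7 was lower with all 3, while CDKN1A, BTG2 and SESN1 were higher with some siRNAs and lower with others. MDM2 was called with siE3 alone, and GDF15 was close to absent. With siE1 4 of the 8 tested members rose and 3 fell, with siE2 2 rose and 5 fell, and with siE3 3 rose and 4 fell (edgeR quasi-likelihood test, adjusted p below 0.05). That is 7 of 8 in each case. Because the members were chosen with earlier results of these data known, their counts beside those of all genes are descriptions. An excess over all genes was not tested. Of all 13395 tested genes, siE1 changed 50.3% (24.5% higher, 25.8% lower), siE2 56.4% (27.9% higher, 28.5% lower) and siE3 42.1% (21.3% higher, 20.8% lower). In the average of the siRNAs 2 rose and 4 fell, against 51.1% of all genes called (23.4% higher, 27.7% lower). At 1.5-fold or more, 3, 5, 3 and 3 members were called with siE1, siE2, siE3 and in the average, and 14.7%, 18%, 9.97% and 9.53% of all tested genes. In all 8 the siE1, siE2 and siE3 libraries lay beyond both siC libraries, which 74.7%, 78.3% and 69.1% of all tested genes did. The median log2 fold change of the 8 was 0.25 for siE1, -0.47 for siE2 and -0.18 for siE3, while over all tested genes it was -0.01, 0.01 and 0.00. Without siC replicate 1, 1 member in place of 3 fell with siE1.

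**Figure D1:**
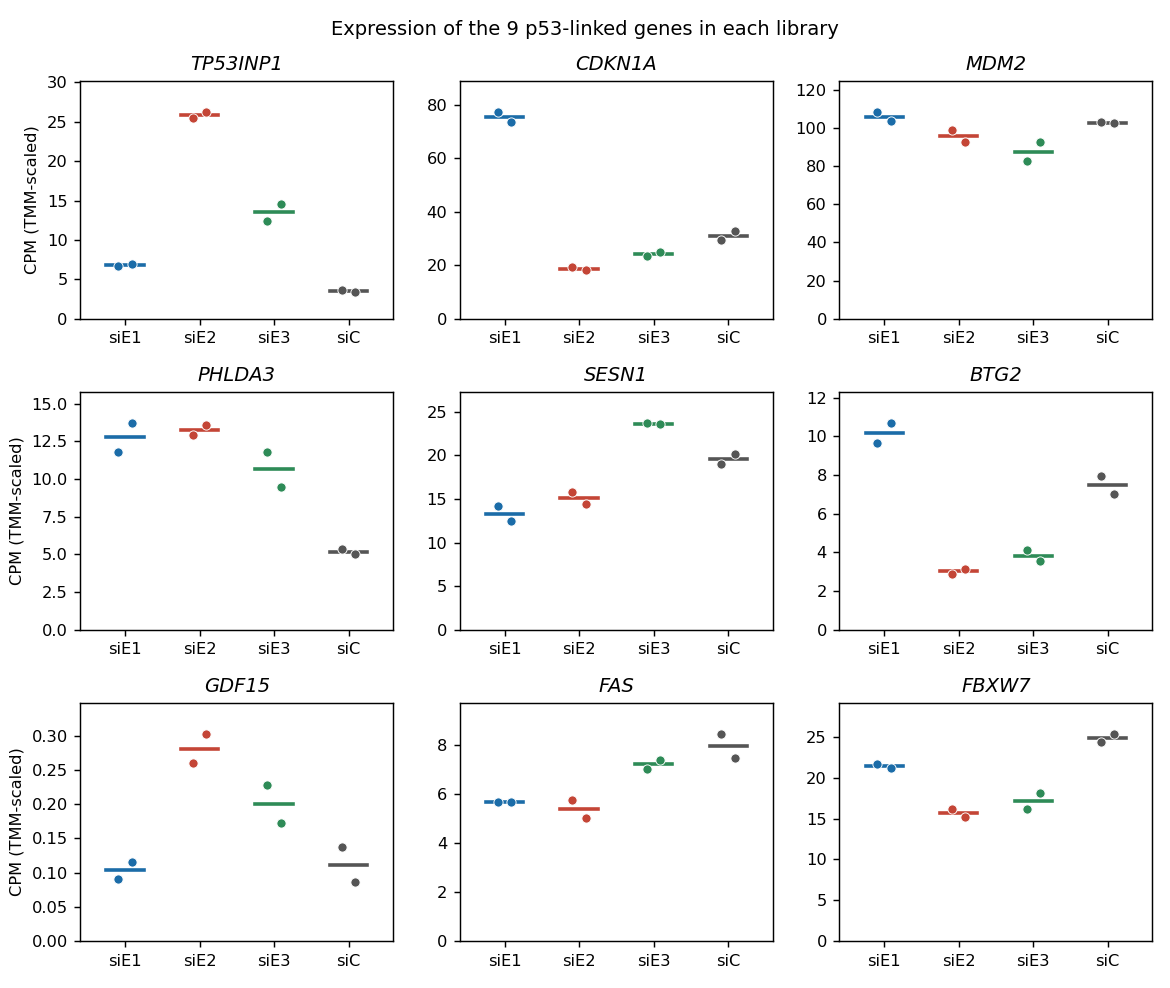
Level of each of the 9 genes in CPM (TMM-scaled, linear axes from 0) in the siE1, siE2, siE3 and siC libraries, with 1 point per library and a line at the mean of the 2. TP53INP1 and PHLDA3 lie above siC with every siRNA and FBXW7 below it, while CDKN1A and BTG2 lie above siC with siE1 and below it with siE2 and siE3.

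CDKN1A encodes p21, the inhibitor of cyclin-dependent kinases and the classic p53 target, and its direction depended on the siRNA. Its level was 77.4 and 73.6 CPM with siE1, 19.2 and 18.1 CPM with siE2, and 23.5 and 25.1 CPM with siE3, against 29.3 and 32.8 CPM with siC. The siE1 libraries were far above siC and the siE2 and siE3 libraries below it, with no overlap between any of the 4 groups. The log2 fold change was 1.28 with siE1 (SE 0.0694, 2.43-fold, edgeR adjusted p = 1.17e-09), -0.73 with siE2 (SE 0.0794, edgeR adjusted p = 1.43e-06) and -0.35 with siE3 (SE 0.0770, edgeR adjusted p = 0.00171). Each step of the order siE1, siC, siE3, siE2 passed the test. siE1 stood above siE2 by 2.01 on the log2 scale (SE 0.0738, edgeR adjusted p = 1.96e-11). In the average of the siRNAs the opposite changes left a log2 fold change of 0.06, which did not pass (edgeR adjusted p = 0.410).

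BTG2, an antiproliferative protein that recruits the CCR4-NOT deadenylase to mRNAs, had the same directions as CDKN1A at a lower level. It stood at 9.67 and 10.7 CPM with siE1, 2.90 and 3.15 CPM with siE2, and 4.11 and 3.55 CPM with siE3, against 7.94 and 7.03 CPM with siC. Both siE1 libraries were above both siC libraries, and all siE2 and siE3 libraries were below them. The log2 fold change was 0.45 with siE1 (SE 0.125, edgeR adjusted p = 0.00742), -1.30 with siE2 (SE 0.152, edgeR adjusted p = 3.13e-06) and -0.97 with siE3 (SE 0.147, edgeR adjusted p = 7.91e-05). The siE1 call was lost without siC replicate 2 (adjusted p = 0.0813), without siE1 replicate 2 (0.0807) and with DESeq2 (0.0557), within a range of 0.00339 to 0.0813 over 16 alternatives. siE1 exceeded siE2 by 1.75 (SE 0.145) and siE3 by 1.41 (SE 0.139) on the log2 scale (edgeR adjusted p = 7.38e-08 and 8.47e-07), while siE2 and siE3 differed by -0.34, which did not pass (edgeR adjusted p = 0.115). SESN1 shared with these 2 genes that at least 1 siRNA raised it and another lowered it, a pattern of 3 of the 8 members and of 10.7% of all tested genes.

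SESN1 encodes sestrin 1, which restrains the growth kinase complex mTORC1 under stress, and it was the mirror of CDKN1A under siE1 and siE3. It stood at 14.1 and 12.4 CPM with siE1, 15.8 and 14.4 CPM with siE2, and 23.7 and 23.5 CPM with siE3, against 18.99 and 20.1 CPM with siC. The siE1 and siE2 libraries were below both siC libraries and the siE3 libraries above them. The log2 fold change was -0.56 with siE1 (SE 0.0944, edgeR adjusted p = 1.50e-04), -0.37 with siE2 (SE 0.0932, edgeR adjusted p = 0.00294) and 0.27 with siE3 (SE 0.0887, edgeR adjusted p = 0.0220). The rise with siE3 was not called without siC replicate 1, siE3 replicate 1 or siE3 replicate 2 or with DESeq2 (adjusted p = 0.0651 to 0.127, over all 16 alternatives 0.0174 to 0.127). It did not pass in the authors' deposited table (adjusted p = 0.0806). The fall in the average, -0.22 (edgeR adjusted p = 0.0215), was lost without siC replicate 2 (0.184), without siE1 replicate 2 (0.0501) and with DESeq2 (0.0707), within 0.0121 to 0.184 over 15 alternatives. siE1 lay below siE3 by 0.83 and siE2 below siE3 by 0.65 on the log2 scale (contrasts of -0.83 and -0.65, edgeR adjusted p = 2.95e-06 and 3.13e-05).

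TP53INP1, a stress-induced protein that takes part in autophagy and binds p53 and its kinases, had the largest rise of the tested members with siE2 and siE3. With siE1 it rose less than PHLDA3 and CDKN1A. It reached 6.64 and 6.99 CPM with siE1, 25.5 and 26.2 CPM with siE2, and 12.4 and 14.5 CPM with siE3, against 3.65 and 3.34 CPM with siC. No siRNA library overlapped with siC, and the 3 siRNAs also kept apart from each other. The rise was 1.95-fold with siE1, 7.40-fold with siE2 and 3.86-fold with siE3, at log2 values of 0.96 (SE 0.142), 2.89 (SE 0.119) and 1.95 (SE 0.129). The edgeR adjusted p was 4.38e-05, 6.84e-11 and 1.54e-08. siE1 was below siE2 by 1.92 (contrast -1.92, SE 0.105) and siE2 above siE3 by 0.94 (SE 0.0962) on the log2 scale (edgeR adjusted p = 8.71e-10 and 1.23e-06). TP53INP1 and CDKN1A were the 2 members for which all 3 contrasts between siRNAs passed, as they did for 17.7% of all tested genes.

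PHLDA3, a pleckstrin homology protein that competes with the survival kinase AKT for membrane lipids, rose by a like amount with each siRNA. It stood at 11.8 and 13.7 CPM with siE1, 12.9 and 13.6 CPM with siE2, and 11.8 and 9.48 CPM with siE3, against 5.34 and 5.01 CPM with siC. Every siRNA library was above both siC libraries, and the siE1 and siE2 libraries overlapped. The rise was 2.47-fold with siE1, 2.56-fold with siE2 and 2.05-fold with siE3, at log2 values of 1.304 (SE 0.136), 1.36 (SE 0.136) and 1.04 (SE 0.141). The edgeR adjusted p was 1.38e-06, 6.55e-07 and 2.74e-05. siE1 and siE2 differed by -0.05 (SE 0.118, edgeR adjusted p = 0.721), and siE2 exceeded siE3 by 0.32 (SE 0.122, edgeR adjusted p = 0.0405). That last call was lost under 5 of 16 alternatives (adjusted p = 0.0109 to 0.346), among them leaving out siE2 replicate 1, siE2 replicate 2 or siE3 replicate 2. A rise with all 3 siRNAs was seen in 2 of 8 members and in 8.73% of all tested genes.

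FAS, the death receptor that starts the extrinsic route to apoptosis, was lower with siE1 and siE2. It stood at 5.69 and 5.67 CPM with siE1, 5.75 and 5.01 CPM with siE2, and 7.04 and 7.40 CPM with siE3, against 8.44 and 7.46 CPM with siC. The siE1 and siE2 libraries were well below siC, and the siE3 libraries just below it. The log2 fold change was -0.48 with siE1 (SE 0.131, edgeR adjusted p = 0.00625) and -0.56 with siE2 (SE 0.133, edgeR adjusted p = 0.00202), and with siE3 it was -0.14 and did not pass (SE 0.127, edgeR adjusted p = 0.419). The siE1 call and that in the average, -0.39 (edgeR adjusted p = 0.00539), were lost without siC replicate 1 (adjusted p = 0.0615 and 0.0959, the highest of 16 and 15 alternatives, the lowest being 0.00278 and 0.00218). siE1 and siE2 lay below siE3 by contrasts of -0.35 and -0.42 (edgeR adjusted p = 0.0422 and 0.0165). Those contrasts were lost under 7 and 3 of 16 alternatives, with adjusted p values of 0.0401 to 0.169 and 0.0102 to 0.127. For the first these included leaving out either siE1 or either siE3 library, and for the second siE2 replicate 2 or siE3 replicate 2.

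**Figure D2:**
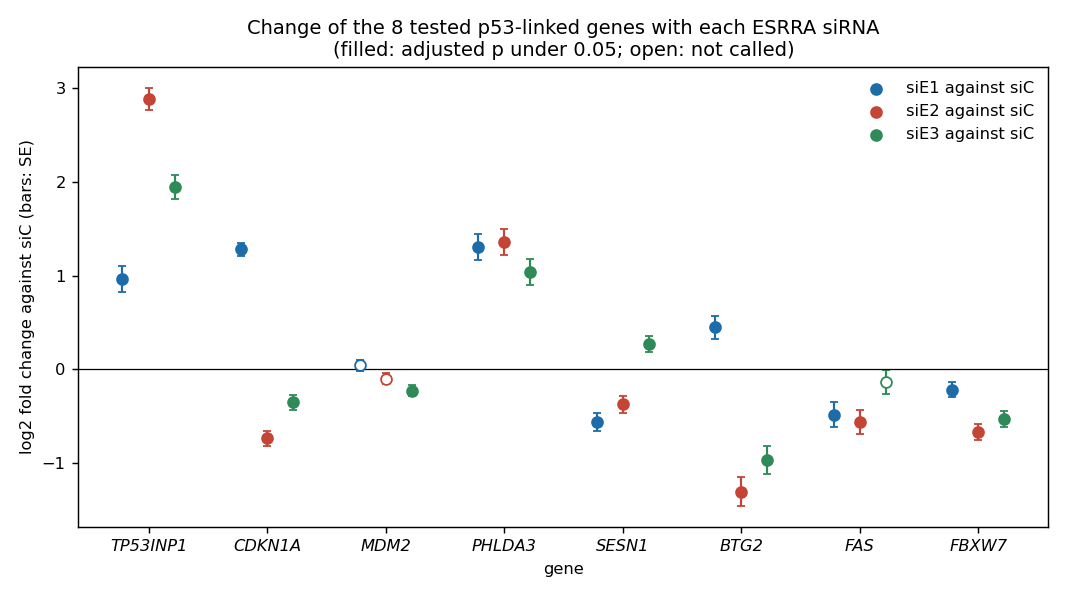
Log2 fold change of the 8 tested genes against siC with siE1, siE2 and siE3 (vertical axis), with bars of 1 SE and open symbols where the edgeR adjusted p was not below 0.05. CDKN1A spans 1.28 to -0.73 and BTG2 0.45 to -1.30 across the siRNAs, while PHLDA3 lies between 1.04 and 1.36.

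FBXW7, the substrate receptor of an SCF ubiquitin ligase that marks cyclin E, MYC and JUN for breakdown, was below siC with each siRNA. Its level was 21.6 and 21.2 CPM with siE1, 16.2 and 15.2 CPM with siE2, and 16.2 and 18.2 CPM with siE3, against 24.4 and 25.3 CPM with siC. All 6 libraries of the ESRRA siRNAs were below both siC libraries, and those of siE2 and siE3 were below those of siE1. The log2 fold change was -0.22 with siE1 (SE 0.0829, edgeR adjusted p = 0.0417), -0.67 with siE2 (SE 0.0864, edgeR adjusted p = 9.52e-06) and -0.53 with siE3 (SE 0.0857, edgeR adjusted p = 1.35e-04). siE1 was above siE2 by 0.45 and above siE3 by 0.32 on the log2 scale (edgeR adjusted p = 4.16e-04 and 0.00693). The siE1 call was lost under 8 of 16 alternatives (adjusted p = 0.0299 to 0.171), among them leaving out either siC library, either siE1 library or siE2 replicate 1, and it did not pass in the authors' deposited table (adjusted p = 0.137). The contrast with siE3 was lost without siE3 replicate 1 (0.0717, in a range of 0.00483 to 0.0717). A fall with all 3 siRNAs was called in 1 of 8 members and in 7.42% of all tested genes.

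MDM2, the ubiquitin ligase that p53 induces and that marks p53 for breakdown, had the smallest change of the tested members with siE1 and siE2. With siE3 FAS changed less. Counts per gene do not separate transcripts of the outer and the inner start. MDM2 stood at 108 and 104 CPM with siE1, 99.2 and 92.6 CPM with siE2, and 82.7 and 92.9 CPM with siE3, against 103 and 103 CPM with siC. The siE1 libraries were above siC by a small margin and the siE2 and siE3 libraries below it. The log2 fold change was 0.05 with siE1 (edgeR adjusted p = 0.553) and -0.10 with siE2 (edgeR adjusted p = 0.162), and siE3 was called at -0.23 (SE 0.0599, edgeR adjusted p = 0.00632). The siE3 call was lost without siE3 replicate 1 (adjusted p = 0.0792, in a range of 0.00126 to 0.0792 over 16 alternatives). None of the neighbours in the order siE1, siC, siE2, siE3 differed by the test, while its ends did, siE1 being above siE3 by 0.27 (SE 0.0596, edgeR adjusted p = 0.00149).

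GDF15, a secreted cytokine raised by p53 and by the integrated stress response, was near the limit of detection. It had 2 and 3 counts with siE1, 6 and 7 counts with siE2, and 5 and 4 counts with siE3, against 3 and 2 counts with siC. The siE2 and siE3 libraries were above siC by 1 to 5 counts, and the siE1 counts were those of siC. The gene did not pass the filter on low counts and was not tested. With no filter its log2 fold change was -0.08, 1.296 and 0.83 with siE1, siE2 and siE3 (edgeR adjusted p = 1, 0.236 and 0.595), and differences of this size were not detectable at this depth.

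Between genes, levels were set side by side as CPM per kilobase of annotated exon (GENCODE v29, protein-coding transcripts). The length was the union over these transcripts, 12724 bases in MDM2 and 2509 in CDKN1A, and the order depends on it. In CPM alone MDM2 stood at 103 and CDKN1A at 31.1 with siC. With siC the order was CDKN1A (12.4), MDM2 (8.08), SESN1 (4.95), FBXW7 (3.71), FAS (3.08), BTG2 (2.76), PHLDA3 (1.92), TP53INP1 (0.616) and GDF15 (0.0928). The order differed with the siRNA. CDKN1A was at 30.1 CPM per kilobase with siE1, above MDM2 at 8.34. With siE2 CDKN1A and MDM2 stood at 7.45 ± 0.315 and 7.54 ± 0.368 CPM per kilobase, within their SD of each other. PHLDA3 and TP53INP1 followed there at 4.92 and 4.56 CPM per kilobase, and BTG2 stood at 1.11. Exons of CDKN1A, MDM2, PHLDA3, SESN1 and FBXW7 overlapped with those of other annotated genes, and none of these other genes had a row in the table.

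Taking all contrasts between siRNAs, at least 1 passed in each of the 8 tested members, and in 75.2% of all tested genes. Between siE1 and siE2 4 members were higher in siE1 and 1 was lower (57.1% of all genes called, 28.5% higher and 28.6% lower). Between siE1 and siE3 4 were higher and 3 lower in siE1 (48.7% called, 23.3% higher and 25.4% lower), and between siE2 and siE3 2 were higher and 3 lower in siE2 (48.5% called, 23.4% higher and 25% lower). At 1.5-fold or more, 3, 4 and 2 members were called in these contrasts, and 19.1%, 13.6% and 12.6% of all tested genes. The 22 of 24 calls against siC that were shared with the authors' deposited table left out FBXW7 with siE1 and SESN1 with siE3.

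The other known p53 targets on a list of 49 genes, 46 of them tested, changed in both directions, with more higher than lower for each siRNA. With siE1 20 rose and 4 fell, with siE2 15 rose and 9 fell, and with siE3 18 rose and 7 fell, so that 52.2%, 52.2% and 54.3% were called, against 50.3%, 56.4% and 42.1% of all tested genes. Over all tested genes 24.5% rose and 25.8% fell with siE1, and 27.9% rose and 28.5% fell with siE2. With siE3 21.3% rose and 20.8% fell, and in the average 23.4% rose and 27.7% fell. The counts of the lists below stand beside the same shares. A lean of a list to either side was not tested. The medians were 0.13, 0.01 and 0.13 on the log2 scale, beside -0.01, 0.01 and 0.00 over all tested genes. In the average 17 rose and 8 fell (54.3% called, against 51.1% of all genes, median 0.05). All 3 siRNAs raised 9 of the 46, and 8.73% of all tested genes. Among the 9 was STEAP3, a ferrireductase, at 0.60, 0.94 and 0.73 with siE1, siE2 and siE3. DRAM1, a lysosomal membrane protein of autophagy, rose by 0.80, 0.73 and 0.76, and PERP, a desmosome component, by 0.11, 0.56 and 0.76. The others were BBC3, PMAIP1, TP53I3, CMBL, LIF and TGFA. BBC3 and PMAIP1 encode PUMA and NOXA, the BH3-only death inducers, and PMAIP1 rose by 1.14 with siE1, 0.17 with siE2 and 0.44 with siE3. The calls of PERP with siE1 and PMAIP1 with siE2 were near the threshold (edgeR adjusted p = 0.0483 and 0.044). KITLG alone fell with all 3, as did 7.42% of all tested genes. Of the 46, 5 were raised by 1 siRNA and lowered by another, as were 10.7% of all tested genes. Among these was PLK2, at 0.49 with siE1 and -1.03 with siE3. TRIAP1, an inhibitor of apoptosis, was at 0.07 with siE1, which did not pass, and fell to -1.59 with siE2 and -0.24 with siE3 in log2 fold change. Without siC replicate 2 or siE1 replicate 2, 4 and 5 in place of 8 fell in the average. At 1.5-fold or more, 6, 6 and 4 of the list rose and 1, 2 and 2 fell with siE1, siE2 and siE3.

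**Figure D3:**
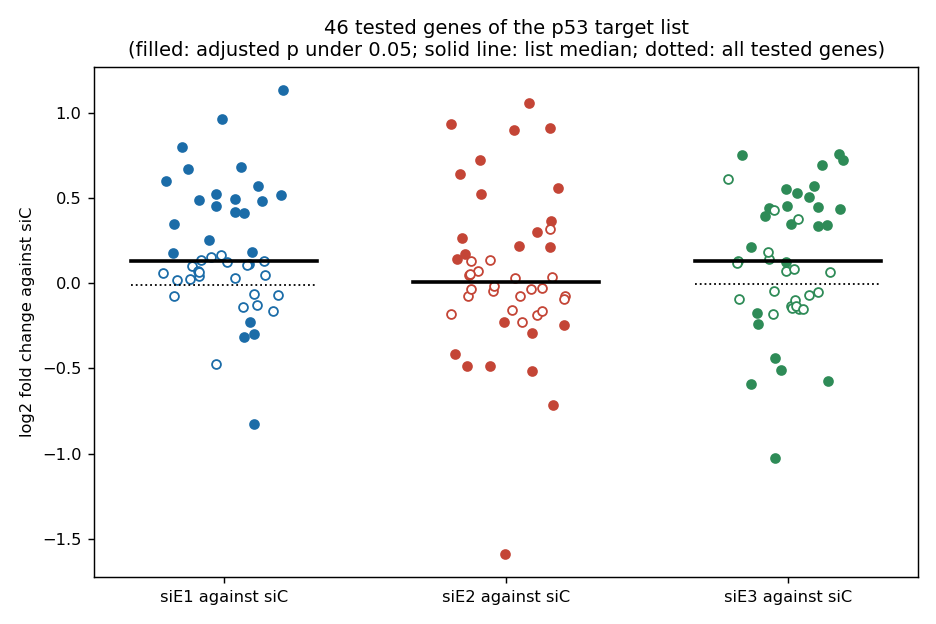
Log2 fold change against siC (vertical axis) of the 46 tested genes of the p53 target list with siE1, siE2 and siE3, with 1 point per gene, filled where the edgeR adjusted p was below 0.05. Solid lines mark the list medians of 0.13, 0.01 and 0.13 and dotted lines the medians of all tested genes. Points lie on both sides of 0 with each siRNA.

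Of 22 regulators of p53, 20 were tested. TP63 and CDKN2A, which encodes the MDM2 inhibitor ARF as well as p16, did not pass the filter, and CDKN2A had no count. With siE1 2 rose and 9 fell, with siE2 3 rose and 9 fell, with siE3 4 rose and 7 fell, and in the average 0 rose and 7 fell (55.0%, 60.0%, 55.0% and 35.0% called, against 50.3%, 56.4%, 42.1% and 51.1% of all tested genes). The medians were -0.10, -0.17, -0.07 and -0.09. TP53BP2, whose product ASPP2 steers p53 toward death genes, fell to log2 fold changes of -0.82, -0.35 and -0.95 with siE1, siE2 and siE3. The checkpoint kinase gene CHEK2 fell by 0.64, 0.83 and 0.28, while CHEK1 (0.09 with siE1, which did not pass) fell by 0.76 with siE2 and 0.23 with siE3. USP7, the protease that removes ubiquitin from MDM2 and p53, was at -0.07 with siE1, which did not pass, at -0.51 with siE2 and at -0.17 with siE3. With siE1 5 in place of 9 fell without siE1 replicate 2, and with siE3 the counts were 4 in place of 7 lower genes without siE3 replicate 1 and 1 and 2 in place of 4 higher genes without siC replicate 2 and siE3 replicate 2. The count of 0 higher in the average was 1 without either siE3 library, and the 1 of 2 higher genes with siE1 was lost without siC replicate 2.

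The list called p21 partners here holds cell cycle genes around p21, not only those whose protein binds it. Its counts differed with the siRNA. Of 14 cyclins, kinases, PCNA, RB1 and E2F1, 6 rose and 3 fell with siE1, 1 rose and 9 fell with siE2, and 2 rose and 6 fell with siE3 (64.3%, 71.4% and 57.1% called, against 50.3%, 56.4% and 42.1% of all tested genes). Over all tested genes 24.5% rose and 25.8% fell in siE1, 27.9% rose and 28.5% fell in siE2, and 21.3% rose and 20.8% fell in siE3. The medians were 0.16, -0.23 and -0.01 on the log2 scale, and in the average 4 rose and 7 fell (78.6% called, against 51.1% of all genes, median -0.11). PCNA, the replication clamp that p21 binds, was at 0.21 with siE1, -0.65 with siE2 and -0.22 with siE3. These signs were those of CDKN1A itself. CDK2 was at -0.07 with siE1, which did not pass, and fell by 0.67 with siE2 and 0.22 with siE3. CCNE2 rose with each siRNA (1.04, 0.42 and 0.83) and CCNA2 fell with each (-0.18, -0.43 and -0.36). Without siC replicate 2, 1 in place of 3 fell with siE1. The 2 higher genes with siE3 were 1 without siC replicate 2 or siE3 replicate 2 and 4 without siE3 replicate 1, and the 4 higher in the average were 2 without siC replicate 1.

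Among 17 relatives of the members, all tested, 5 rose and 5 fell with siE1, 10 rose and 3 fell with siE2, and 8 rose and 2 fell with siE3. That is 58.8%, 76.5% and 58.8% called, against 50.3%, 56.4% and 42.1% of all tested genes, with medians of -0.05, 0.16 and 0.12. In the average 6 rose and 2 fell (47.1% called, against 51.1% of all genes, median -0.01). PHLDA2 and PHLDA1 rose with each siRNA, as PHLDA3 did, but not in the same proportions. PHLDA2 was at 0.64, 0.37 and 0.64 and PHLDA1 at 0.26, 0.40 and 0.66 with siE1, siE2 and siE3, each passing the test. PHLDA1 was lower in siE1 than in siE3 (contrast -0.40, edgeR adjusted p = 3.69e-05). PHLDA2 was higher in siE1 than in siE2 (contrast 0.27, edgeR adjusted p = 6.1e-04). CDKN1C, the p21 relative p57, rose by 0.58, 1.65 and 1.02, so that with siE2 and siE3 it had the opposite sign to CDKN1A. FBXW8, another F-box and WD40 protein, rose by 0.21, 1.23 and 0.78, opposite to FBXW7. TP53INP2, the relative of TP53INP1, was at -0.05 with siE1, which did not pass, 0.34 with siE2 and -0.32 with siE3.

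In the route downstream of FAS, 6 of 13 tested genes rose and 1 fell with siE1, 1 rose and 3 fell with siE2, and 0 rose and 6 fell with siE3. That is 53.8%, 30.8% and 46.2% called, against 50.3%, 56.4% and 42.1% of all tested genes, with medians of -0.01, -0.11 and -0.10. In the average 2 rose and 5 fell (53.8% called, against 51.1% of all genes, median -0.09), and FASLG, the ligand, did not pass the filter. Cytochrome c (CYCS) was at -0.30, -0.78 and -0.62 with siE1, siE2 and siE3, and the adaptor FADD at 0.30, 0.16 and 0.10, the last not called. FAF1 was at -0.61 with siE2 and DAXX at -0.54 with siE3, each not called with the other siRNAs. In the average, 3 in place of 5 fell without siC replicate 2, and 1 in place of 2 rose without siC replicate 1, siC replicate 2, siE1 replicate 2, siE2 replicate 2 or siE3 replicate 1. Of 14 genes of the FBXW7 ligase and its substrates, 3 rose and 7 fell with siE1, 2 rose and 5 fell with siE2, and 3 rose and 4 fell with siE3 (71.4%, 50% and 50% called, against 50.3%, 56.4% and 42.1% of all tested genes). In the average 3 rose and 5 fell (57.1% called, against 51.1% of all genes, median -0.07), or 1 and 3 without siC replicate 1. The substrates CCNE1 and MYC fell in the average by 0.33 and 0.22. With siE1, siE2 and siE3 CCNE1 was at -0.34, -0.65 and -0.01, the last not called. MYC was at -0.12, -0.24 and -0.32, the first not called. AURKA was lower with each siRNA (-0.33, -0.31 and -0.27), and MTOR and MCL1 were at -0.19 and -0.09 in the average. The genes called higher in the average were SREBF1 (0.34), NOTCH2 (0.30) and JUN (0.13). NOTCH2 was at -0.06 with siE1, which did not pass, 0.31 with siE2 and 0.66 with siE3.

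The integrated stress response through the factor ATF4 is the best known p53-independent control of GDF15 and of the sestrin SESN2. Of its 11 listed genes 3 rose and 3 fell with siE1, 3 rose and 3 fell with siE2, and 4 rose and 1 fell with siE3 (54.5%, 54.5% and 45.5% called, against 50.3%, 56.4% and 42.1% of all tested genes). In the average 3 rose and 1 fell (36.4% called, against 51.1% of all genes, median 0.00). DDIT4, an mTORC1 inhibitor that p53 and hypoxia also raise, rose by 1.01, 2.00 and 1.02 on the log2 scale with siE1, siE2 and siE3. ATF4 was at -0.21, -0.16 and 0.07, the last not called, and PSAT1 at 0.08, 0.13 and 0.37, of which siE3 was called. PPP1R15A was at 0.19, 0.34 and -0.02, the last not called. SESN2 itself was at -0.13, -0.49 and 0.12, of which siE2 was called, and ASNS was at -0.37, -0.33 and 0.30, each called. Without siC replicate 1 the counts in the average were 1 higher and 2 lower, and the 1 lower gene was not called without siC replicate 2, siE1 replicate 1 or siE2 replicate 2. Some lists share genes, such as CCNE1, SESN2, MDM4 and APAF1.

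**Figure D4:**
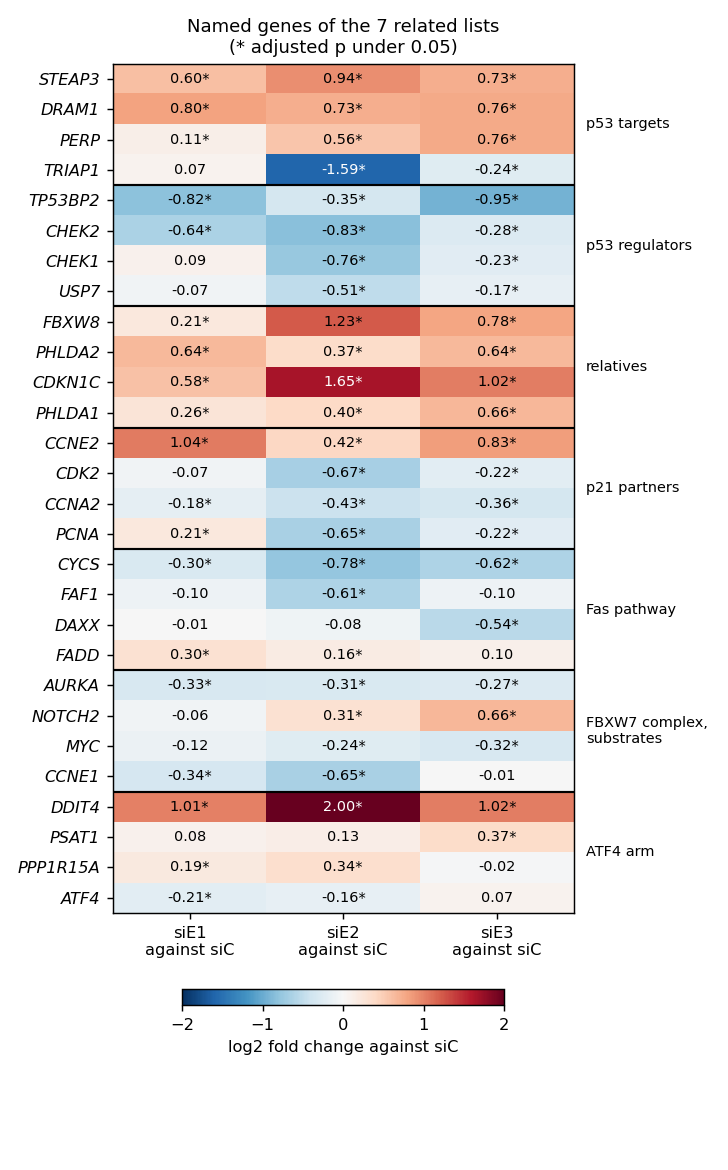
Log2 fold change against siC (colour and printed value) of the 4 genes with the smallest p in the average of the siRNAs in each of the 7 related lists, with siE1, siE2 and siE3 in columns and an asterisk where the edgeR adjusted p was below 0.05. CDKN1C and DDIT4 rose and CYCS and AURKA fell with each siRNA, while PCNA was higher with siE1 and lower with siE2 and siE3.

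The genes whose levels followed each member most closely over the 8 libraries were found by Pearson correlation of log2(CPM + 1) among 10502 genes with a mean of at least 5 CPM. The points share the same libraries and fall into 4 groups of 2, so the values are descriptions. ATF2 and FNDC3B were closest to TP53INP1 (r = 0.995 and 0.995). NANP and TARS were closest to CDKN1A (0.995 and 0.994), SGCB and NAP1L4 to BTG2 (0.994 and 0.993), and TRAPPC1 and EPB41L1 to PHLDA3 (0.991 and 0.991). DNAJC15 and B4GALT1 were closest to SESN1 (0.993 and 0.988) and PSME3 and GTPBP10 to FBXW7 (0.998 and 0.989). HADHA and ZNF696 were closest to FAS (0.982 and 0.978), and PSMB2 and MALT1 to MDM2 (0.987 and 0.981). The sizes differed from the members' own, as with FNDC3B at 0.36, 1.09 and 0.71 and NANP at 0.33, -0.18 and -0.06 in log2 fold change with siE1, siE2 and siE3.

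Words of 7 bases in the 3' UTR that an earlier search of these fold changes had brought up, TACATTT and ACATTTA, were looked for in the members, on the transcript strand. The words overlap with each other, and because they were found on the same data they support nothing here. Of the 8 tested members, 4 held at least 1 of them, against 31.9% of 11504 genes searched. TP53INP1 held 6 in a 3' UTR of 4507 bases, PHLDA3 held both words in 1 place and MDM2 and FAS held 1 word each, while CDKN1A, BTG2, SESN1 and FBXW7 held none. These 4 include both members raised by all 3 siRNAs, and also MDM2 and FAS, which were not raised. A longer 3' UTR has more chances to hold a word. The median was 1147 bases over the genes searched, beside 1858 in PHLDA3, 1335 in FAS and 958 in MDM2. The sites of 3 members are shown to compare them, with the words in capitals (GENCODE v29 transcripts):
PHLDA3 site: caggctttaTACATTTAcacagtaag
MDM2 site: atgtatatgACATTTAaatgtaactt
FAS site: tttactgggTACATTTtatcatttat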

How the data were processed

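Per the submitters' processing notes, reads were processed with TopHat 1.3.3, HTSeq and DESeq on the human build hg19. The sources used here give no annotation, strand setting or filter, so that reads of overlapping genes on opposite strands cannot be told apart. The authors' deposited counts are whole numbers per gene symbol for 8 libraries. Beside them stand the authors' deposited fold (a linear ratio) and adjusted p-value for each siRNA against siC, used here only where named.

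From the counts, edgeR 4.0.16 (R 4.3.3) kept 13395 genes with filterByExpr, scaled them by TMM and fitted 1 mean per group over 8 libraries (glmQLFit, glmQLFTest, 4 residual degrees of freedom). The contrasts set siE1, siE2, siE3 and their average over siC, and one ESRRA siRNA over another. P-values were adjusted by Benjamini-Hochberg over all tested genes, at a threshold of 0.05. The SE was taken from the log2 fold change and the root of F. Libraries of a group differed by more than sampling noise (chi-square over its degrees of freedom, 3.11 to 5.12). The fit was tested on simulated counts.

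The members and gene lists were chosen with earlier results of these data known. Named were the 9 members, ESRRA, up to 4 genes of each list with the smallest p in the average, and the 2 genes closest to each member. Others that are named were chosen after their values were seen. They are TP53INP2, PLK2, JUN, SREBF1, MTOR, MCL1, SESN2, ASNS, PMAIP1 and the rest of the target genes moved by all 3 siRNAs. List symbols were matched directly or through a RefSeq synonym. Promoters are RefSeq's (GRCh38.p14) and transcripts GENCODE v29, neither on the authors' build. Alternatives were DESeq2 size factors, library size only, no filter, a stricter filter (a mean of 1 CPM and 50 counts), DESeq2 1.42.0, limma-voom (limma 3.58.1), a fit to the 2 groups of each contrast alone, a block for the replicate number, a limit of 1.5-fold and leaving out each library. Sequences and plots used Python 3.11.15 with pandas 2.3.3 and matplotlib 3.10.9.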

Additional observations from a re-analysis of the deposited data

Results flagged for a closer look

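In each of the 8 tested genes the change against siC differed between siRNAs in at least 1 direct contrast, and 17 such contrasts passed (edgeR adjusted p below 0.05, log2 scale). TP53INP1 was at -1.92 for siE1 minus siE2, -0.98 for siE1 minus siE3 and 0.94 for siE2 minus siE3. CDKN1A was at 2.01, 1.63 and -0.38 in the same contrasts. BTG2 was at 1.75 for siE1 minus siE2 and 1.41 for siE1 minus siE3, and FBXW7 at 0.45 and 0.32 in these. SESN1 was at -0.83 for siE1 minus siE3 and -0.65 for siE2 minus siE3, and FAS at -0.35 and -0.42 in these. MDM2 was at 0.15 for siE1 minus siE2 and 0.27 for siE1 minus siE3, and PHLDA3 at 0.32 for siE2 minus siE3. In CDKN1A, BTG2 and SESN1 the siRNAs passed the test against siC in opposite directions, while ESRRA fell with each siRNA. ESRRA was higher in siE1 than in siE2 by 0.37 and than in siE3 by 0.30 (edgeR adjusted p = 0.00922 and 0.0310), and the part of this in the results was not tested.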

How the results depend on the processing

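Of 56 values for the 8 tested genes in 7 contrasts, 41 kept their side of the threshold under every alternative other than the 1.5-fold limit, which was run on counts only. The deviations between replicates 1 and 2 correlated at 0.143 for siC with siE3 and at 0.230 for siE1 with siE2. In the other pairs of groups they correlated at -0.274 to -0.214. The replicate numbers thus did not pair the libraries the same way in all groups. A factor shared by libraries of different replicate numbers was not tested. With the number as a block 4 calls were lost, those of FAS (siE1 minus siE3, -0.34, adjusted p = 0.0559), FBXW7 (siE1 minus siC, -0.22, 0.0632), MDM2 (siE1 minus siE2, 0.15, 0.0718) and PHLDA3 (siE2 minus siE3, 0.32, 0.0621). MDM2 in the average was called without siE3 replicate 2 (-0.13, adjusted p = 0.0228, range 0.0228 to 0.283), PHLDA3 in siE1 minus siE3 without siE3 replicate 1 (0.0216, range 0.0216 to 0.523), and MDM2 in siE2 minus siE3 without siE3 replicate 2 and by library size only (0.0147 and 0.0213, range 0.0147 to 0.597). MDM2 in siE1 minus siE2 lost its call under 8 of 16 alternatives (adjusted p = 0.0212 to 0.300), among them leaving out either siC library, either siE1 library or siE2 replicate 2. Values that changed sign, none of them called, were CDKN1A in the average without siC replicate 1 (-0.017, range up to 0.147 when each library was left out), FAS in siE1 minus siE2 without siE2 replicate 2 (-0.0183, range up to 0.191) and PHLDA3 in siE1 minus siE2 without siE1 replicate 1 (0.0472, range down to -0.17). Where leaving out a library left 1 in a group, that library was assumed to vary like the other groups. The fit to the groups compared alone gave no value for the average.

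With DESeq2, and with the replicate block, 1 member was higher in siE2 minus siE3 in place of 2, 1 Fas pathway gene in place of 2 was higher in the average, and 0 ATF4 genes in place of 1 were lower. That ATF4 count was also 0 with library size only and with the stricter filter. When each library was left out, the range was 1 to 2 members higher in siE2 minus siE3, 1 to 3 members lower with siE1, 1 to 4 ATF4 genes higher and 0 to 2 lower, 1 to 2 Fas pathway genes higher and 3 to 5 lower, and 1 to 3 FBXW7 genes higher and 3 to 5 lower. For p21 partners it was 2 to 4 higher in the average, 1 to 4 higher with siE3 and 1 to 3 lower with siE1. For p53 regulators it was 0 to 1 higher in the average, 1 to 2 with siE1 and 1 to 4 with siE3, and 5 to 9 lower with siE1 and 4 to 8 with siE3, and for p53 targets 4 to 9 lower in the average.

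The 1.5-fold limit lowered most counts by construction. Over all tested genes 1101, 1529, 798 and 904 were then higher with siE1, siE2, siE3 and in the average, and 873, 879, 537 and 373 lower. In siE1 minus siE2, siE1 minus siE3 and siE2 minus siE3 1030, 887 and 1075 were higher and 1526, 940 and 616 lower. Members lower were 0 with siE1, 3 with siE2, 1 with siE3, 1 in the average and 1 in siE2 minus siE3, and members higher were 2, 2 and 1 in the contrasts between siRNAs. Of p53 targets 6, 6, 4 and 6 were higher and 1, 2, 2 and 2 lower with siE1, siE2, siE3 and in the average. Of p53 regulators 0 were higher with each siRNA and 2, 2, 1 and 1 lower. Of p21 partners 3, 0, 1 and 1 were higher and 0, 3, 0 and 0 lower. In the average 2 relatives were higher and 0 lower, 1 ATF4 gene higher and 0 lower, and 0 Fas pathway and 0 FBXW7 genes passed in either direction. At this depth GDF15, at 2 to 7 counts, could not be compared.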
